A study of Caenorhabditis elegans with 6 samples.

Results

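Of the 2683 peaks called in total nuclei of Caenorhabditis elegans, 467 overlapped no peak of the neuronal list by 1 bp or more, which is 17.4% of the list (exact 95% interval 16.0% to 18.9%). These 467 total-only peaks were chosen by that overlap alone, so their absence from the neuronal list is the definition of the set and not a result. The remaining 2216 peaks of total nuclei are called shared. Each summit was assigned to the protein-coding gene with the nearest end, which gave 457 genes, or 2.29% of the 19971 protein-coding genes with a position. A summit could lie inside another gene than the one it was assigned to. Shared peaks were nearest to 2079 genes, or 10.4%.

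The data come from ATAC-seq, a method that cuts accessible DNA with the transposase Tn5, on nuclei of strain OH11061 (genotype otIs381) grown as a mixed-stage population. Nuclei positive for GFP and DAPI were sorted as neuronal in 3 samples, and DAPI-positive nuclei, among them the neuronal ones, were sorted as total in 3 samples, with 50000 nuclei in each sample. All 6 samples carry otIs381, and the labels do not give the promoter that drives its GFP. The authors deposited 1 peak list per group with no value per sample, so there is no replicate error behind any value below and no test between the groups was possible. Intervals are exact binomial 95% intervals over peaks or genes and cover counting error only. The limit given for a count of 0 is 3 divided by the number counted, which lies below the exact upper limit.

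An accessible site in bulk chromatin averages over all nuclei in the tube, so a site open in a small group of cells gives a low signal, and fewer open cells cannot be told apart from less accessibility per cell. In worms, promoters of broadly used genes tend to be accessible across tissues, while distal sites upstream of or inside genes are more often open in particular tissues. Genes lie close together in this genome, so a single accessible region often serves neighbouring genes that start on opposite sides of it. No gene sequence, strand or exon structure was used, so an end is a start or a finish of a gene and positions within exons, introns and UTRs were not analysed here.

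The total-only peaks were the weak end of their list. Their median fold over local background, as the authors' peak caller gave it, was 8.16 (quartiles 6.97 to 9.31, range 1.26 to 12.8), beside 11.3 for shared peaks. Their median pileup, the number of stacked fragments at the summit recovered from fold and p, was 800 (quartiles 721 to 911) beside 1320. When the list was ranked by the authors' p in bins of 10%, total-only peaks made up 80.6%, 51.9%, 31.0%, 9.29% and 1.49% of the weakest 5 bins in order, and 0 of the 1342 peaks in the other 5, which allows a share of up to 0.224%. Of the 536 peaks in the weakest 20%, 355 were total-only (66.2%), and 181 were shared. These 181 weak shared peaks had a median fold of 8.01 and a median pileup of 851, close to the total-only values, and stand beside them in the comparisons that follow. Strength is a measure of the contrast that chose the set, so these values are a description.

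**Figure D1:**
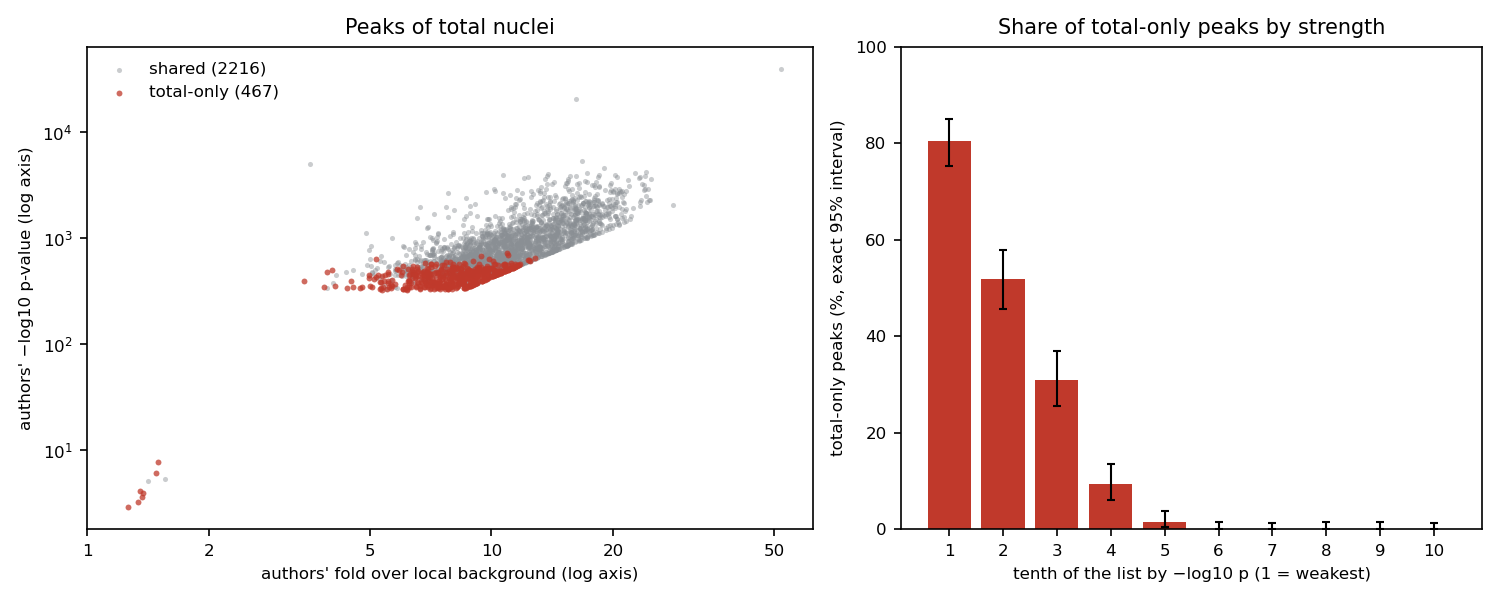
Left, fold over local background against −log10 p-value for each peak of total nuclei, both on log axes, with the 467 total-only peaks in red and the 2216 shared peaks in grey. Right, the share of total-only peaks in each bin of 10% of the list by −log10 p, with exact 95% intervals; it falls from 80.6% in the weakest bin to 0 in the stronger 5.

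The deposited score, a scaled value of the irreproducible discovery rate, was at its maximum of 1000 in 263 of 467 total-only peaks (56.3%), in 2151 of 2216 shared peaks (97.1%) and in 121 of the 181 weak shared peaks (66.9%). The lists differed in depth: the lowest local background in any peak was 69.1 fragments in total nuclei and 110.3 in neuronal nuclei. By this measure the neuronal list was the deeper one, yet it held fewer peaks, 2313 against 2683. In fold, 343 total-only peaks (73.4%) lay above the lowest 10% of the neuronal list, beside 93.5% of shared and 65.2% of weak shared peaks. Above the median of the neuronal list lay 46 total-only peaks (9.85%), beside 60.4% and 4.97%. In −log10 p the 90th percentile of total-only peaks was 539.6 and the 5th percentile of the neuronal list 603.9, in lists that differed in depth. Absence of a peak therefore does not give the signal at these sites in neuronal nuclei, which the lists do not hold.

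At the border of the rule, the nearest peaks without overlap lay 71 bp (hgap-1), 122 bp (col-98), 163 bp (Y43D4A.5), 195 bp (mstr-1) and 208 bp (fmil-1) from a neuronal peak. The first pair of these had folds of 1.49 and 1.37 beside strong neuronal peaks with folds of 10.7 and 13.8. The smallest overlaps that counted as shared were 150 bp (prdh-1), 247 bp (R01B10.3), 265 bp (meic-1), 281 bp (tag-123) and 284 bp (dot-1.4), each at least 95.9% of the peak. Shared peaks overlapped their partner over a median of 98.7% of their width, and 17 of them by under 50%. Most of the set was far from the border, with a median gap of 15300 bp to the nearest neuronal peak (quartiles 5650 to 31118 bp) and 17 peaks within 500 bp. The most isolated peaks were at nhr-238, a nuclear hormone receptor gene (gap 115507 bp), lips-10, a lipase-like gene (103651 bp), F57A10.2 (102759 bp), F26F2.8 (100363 bp) and pig-1, a kinase gene of the MELK family (99976 bp).

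The strongest total-only peak by −log10 p lay 5415 bp inside pct-1, a PCTAIRE-type cyclin-dependent kinase gene, at IV:8183148-8183753, with a fold of 10.9 and a pileup of 1116. Next was orc-5, a subunit of the origin recognition complex that marks where DNA replication starts (fold 11.0, pileup 1068, 129 bp outside the gene). The peak 2401 bp from tln-1, which encodes the adhesion protein talin, had a fold of 9.44 and a pileup of 1149. By fold the leading peaks were at unc-36 (12.8), rgs-1 (12.4), C48D5.3 (12.4) and vang-1 (12.3). unc-36 encodes an accessory subunit of voltage-gated calcium channels, rgs-1 a protein that shortens G protein signals, and vang-1 the planar polarity protein Van Gogh. These leaders combined a moderate pileup of 870 to 899 fragments with a local background at or near the floor of 69.1. The peak at mstr-1 was of the other kind, with a pileup of 1739 over a background of 334.5, for a fold of 5.19. In all, 7 total-only peaks had a fold under 2, at ech-4, mlcd-1, rps-29, col-98, cacn-1, pqn-48 and hgap-1, with pileups of only 129 to 206 fragments and widths of 150 to 396 bp.

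Total-only peaks sat at gene ends more often than shared peaks as a whole, but not more often than weak shared peaks. A summit was counted as near an end if it fell within 1000 bp outside or 200 bp inside the end of any protein-coding gene. This held for 322 of 467 total-only peaks (69.0%, 64.5% to 73.1%), for 60.9% of shared peaks (58.8% to 62.9%) and for 70.7% of the weak shared peaks (63.5% to 77.2%). The nearest end was within 200 bp for 40.3% of total-only, 25.8% of shared and 40.3% of weak shared peaks. Ends of 2 or more genes lay within 1000 bp for 45.2%, 32.5% and 43.6% in the same order. A summit inside a gene was found for 25.7%, 27.3% and 29.8%. In each of these measures the total-only set lay within the interval of the weak shared peaks, so no difference in position from shared peaks of like strength was detectable at these numbers. The contrast with all shared peaks was smaller without the peaks at tRNA genes, which are described below. Summits near an end then made up 69.6% of total-only peaks (65.1% to 73.8%) and 64.8% of shared peaks (62.6% to 67.0%), with overlapping intervals.

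**Figure D2:**
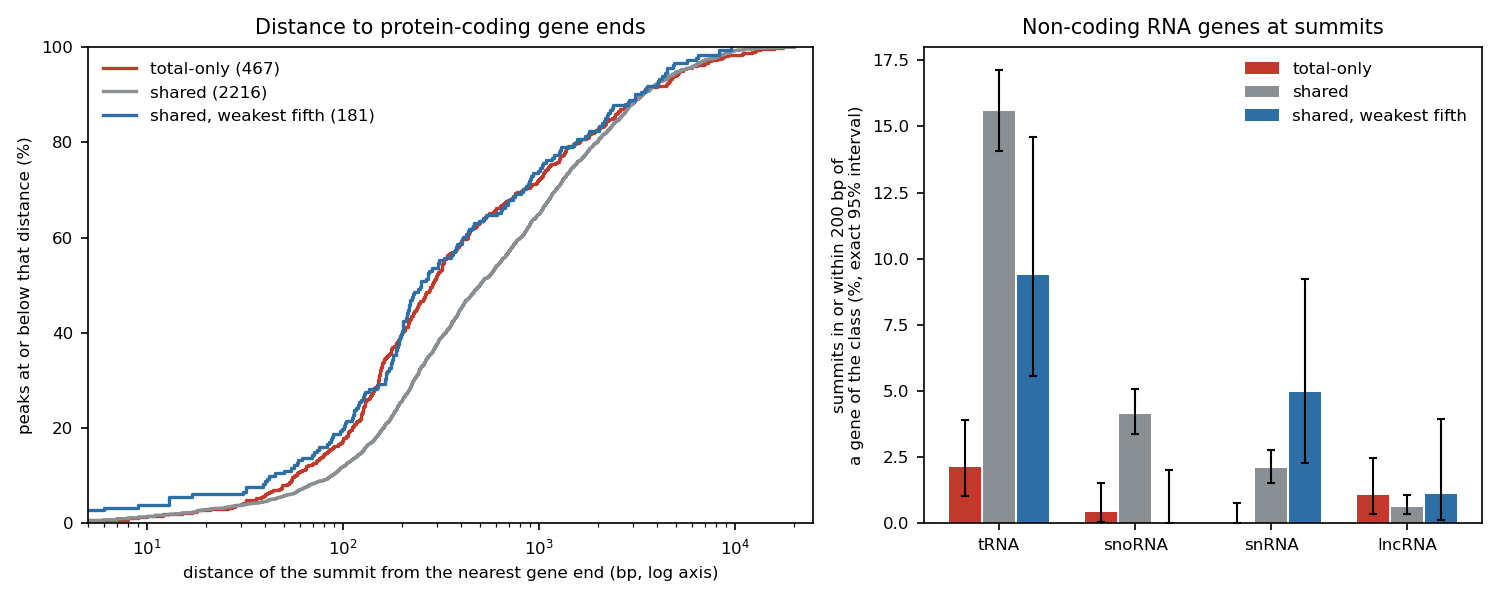
Left, the cumulative share of peaks by distance of the summit from the nearest protein-coding gene end (bp, log axis); the total-only curve runs with that of the weak shared peaks, with medians of 284 and 249 bp, and to the left of all shared peaks, with a median of 499 bp. Right, the share of summits in or within 200 bp of genes of 4 non-coding RNA classes, with exact 95% intervals; tRNA genes lie at 2.14% of total-only and 15.6% of shared peaks.

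Within the set, width and position went together. The 322 peaks near a gene end had a median width of 948 bp (quartiles 706 to 1266 bp) and the 145 others a median of 597 bp (488 to 745 bp), while their median folds were 8.27 and 7.80. Of the 163 total-only peaks of 1000 bp or more, 153 were near a gene end (93.9%, 89.0% to 97.0%), against 169 of the 304 narrower ones (55.6%, 49.8% to 61.3%). Weak shared peaks showed the same split, with 46 of 51 wide peaks (90.2%) and 82 of 130 narrower ones (63.1%) near an end. The widest total-only peaks were at C39F7.5 (3078 bp), K08H10.10 (2549 bp) and wapl-1 (2150 bp), the last encoding the factor that releases cohesin from chromosomes. All 3 had summits between 170 and 663 bp from a gene end and modest folds of 5.99 to 6.88.

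**Figure D3:**
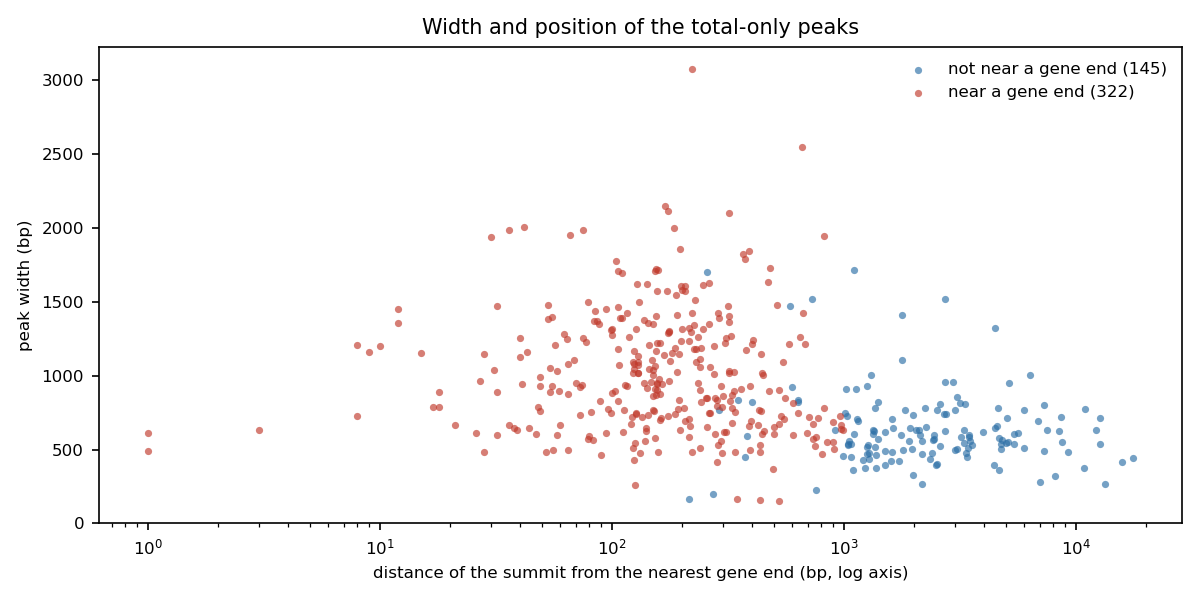
Width of each of the 467 total-only peaks (bp) against the distance of its summit from the nearest gene end (bp, log axis), with the 322 peaks near a gene end in red and the 145 others in blue. Peaks near an end have a median width of 948 bp and the others 597 bp.

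Peaks at tRNA genes made up a smaller share of the set than of shared peaks. tRNA genes are short, are transcribed by RNA polymerase III in every cell, and carry their promoter inside the gene. A summit lay in or within 200 bp of one for 10 of 467 total-only peaks (2.14%, 1.03% to 3.90%), 345 of 2216 shared peaks (15.6%, 14.1% to 17.1%) and 17 of the 181 weak shared peaks (9.39%, 5.57% to 14.6%). Counted from the genes' side, 10 of the 355 tRNA peaks of total nuclei were total-only (2.82%), against 19.6% of all other peaks. In the weakest 20% of the list this was 9 of 26 (34.6%, 17.2% to 55.7%) against 346 of 510 (67.8%, 63.6% to 71.9%), so the share was lower at tRNA genes among weak peaks too. The total-only peaks concerned were at F42H10.t1 (fold 10.8), Y43D4A.t2 (9.17), R04D3.t1 (8.99), K08H2.t1 (7.49), F02D10.t3 (7.22), ZK994.t1 (6.96), M163.t2 (6.72), C06G4.t1 (6.35), T01B4.t4 (6.34) and F09B9.t2 (5.54). Of these peaks 6 were on chromosome X. The share depended on which peaks were entered. Among peaks with a score of 1000 it was 5.05% of the total-only peaks defined there (3.07% to 7.78%) and 16.0% of the shared ones. In the stronger 50% of each list, where the rule gives other peaks and none of the 467, it was 9.05% (5.54% to 13.8%) and 19.1% (16.8% to 21.5%).

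Genes of small nuclear RNAs, the RNA parts of the spliceosome and related particles, were at 0 of 467 total-only peaks (a share of up to 0.642% is possible), and at 46 shared (2.08%) and 9 weak shared peaks (4.97%). Genes of small nucleolar RNAs, which guide modification of ribosomal RNA, were at 2 total-only peaks (0.428%), 92 shared peaks (4.15%) and 0 weak shared peaks. The only total-only peak at a microRNA gene was at mir-800, 196 bp from ife-2, with a fold of 8.80. Long non-coding RNA genes were at 5 total-only peaks (1.07%) and 14 shared peaks (0.632%). The 5 were linc-84, linc-109, linc-129, linc-143, which shares its peak with an inner part of daf-2, and linc-153, which shares its peak with a site 3345 bp from bir-1.

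Chromosome X, which males carry once and hermaphrodites in a pair, held 57 total-only peaks (12.2%, 9.38% to 15.5%) and 455 shared peaks (20.5%, 18.9% to 22.3%). The weak shared peaks lay between, at 15.5% (10.5% to 21.6%). In the list of total nuclei, 11.1% of X peaks were total-only, against 16.4% to 21.0% on the other chromosomes. tRNA genes moved with this difference, as they were at 29.5% of X peaks and 9.40% of autosomal peaks. Without peaks at tRNA genes X held 11.2% of total-only peaks (8.42% to 14.4%) and 16.6% of shared peaks (14.9% to 18.3%). Among peaks in the weakest 20%, 41 of 69 X peaks were total-only (59.4%, 46.9% to 71.1%), against 61.2% to 73.1% per autosome, and that interval spans most of the autosomal values.

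The genes nearest to total-only peaks were grouped by name into 39 families, which held 197 of the 457 genes. For 9 families the interval of the share of genes with a total-only peak lay above the 2.29% of all genes, and for 2 it lay below. These 39 intervals were not adjusted for their number. In 7 of the 9 the share of genes with a shared peak lay above the 10.4% of all genes as well, so most of these families had many peaks of both kinds. The exceptions were mitochondrial and glycosyltransferase genes. With assignment limited to summits close to an end, 8 families lay above and 4 below the 1.61% of all genes there. The bHLH and bZIP, chromatin, transcription machinery, muscle and glycosyltransferase families were then no longer above, and the translation, proteasome, cell cycle and transporter families were. With every gene span widened by 2000 bp, 10 lay above and 5 below the 4.24% of all genes there. The bHLH and bZIP, transcription machinery and muscle families were lost there, and the ribosomal protein, translation, cytoskeleton and cell cycle families were gained. The synaptic, splicing, mitochondrial and membrane traffic families lay above under each assignment tried.

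**Figure D4:**
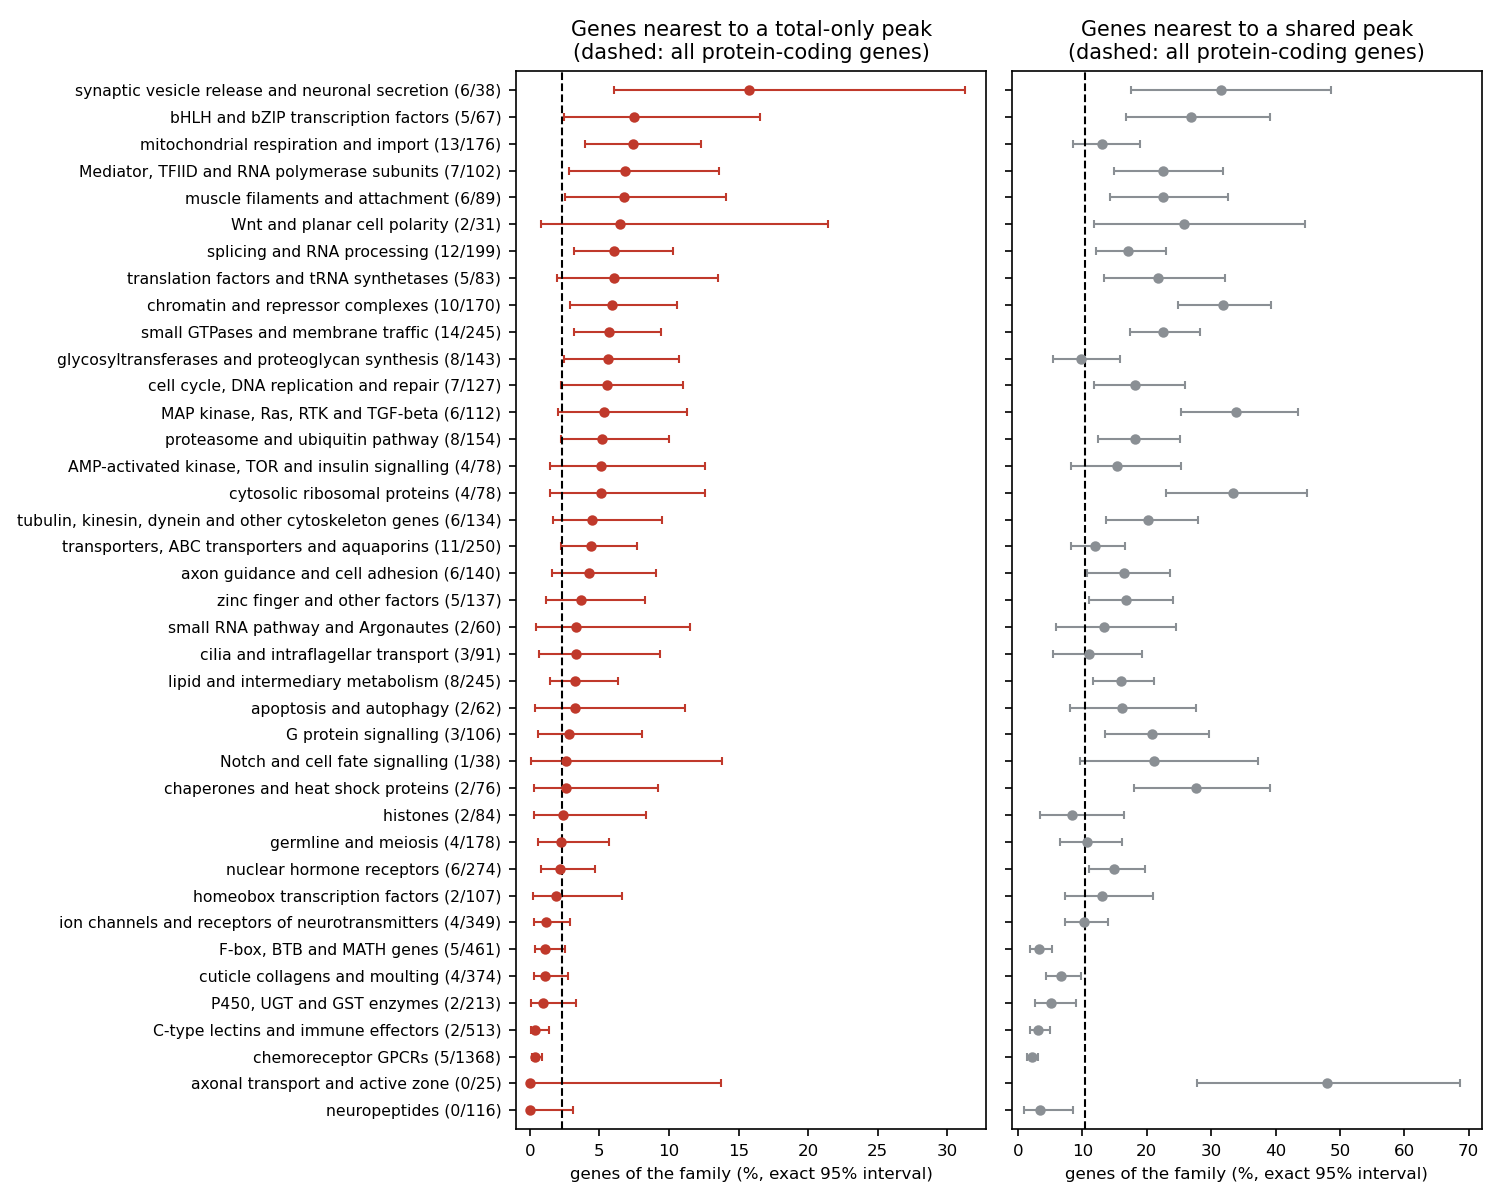
Share of each family's genes nearest to a total-only peak (left, red) and to a shared peak (right, grey), with exact 95% intervals and the counts of total-only genes in the labels; the dashed lines mark 2.29% and 10.4% of all protein-coding genes. Synaptic genes lead on the left with 6 of 38, and axonal transport genes have none on the left and 12 of 25 on the right.

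Genes of mitochondrial respiration and import, which make ATP in all tissues, had a total-only peak at 13 of 176 genes (7.39%, 3.99% to 12.3%) and a shared peak at 23 (13.1%, 8.47% to 19.0%). Of the family's 36 peaks in total nuclei 13 were total-only (36.1%, 20.8% to 53.8%), and it was the only family of the 39 whose interval for this share lay above the 17.4% of the whole list. The ATP synthase genes asg-2, atp-3 and atp-1 had total-only peaks with folds of 10.2, 7.91 and 7.70. sdhd-1 (9.11) and sdha-1 (8.03) encode subunits of succinate dehydrogenase, cox-5B (5.46) a subunit of cytochrome c oxidase, and mrps-18A (10.2), mrpl-36 (8.18) and mrps-12 (7.14) proteins of the mitochondrial ribosome. idhg-1 (7.37) and mdh-2 (6.20) encode enzymes of the citric acid cycle, spg-7 (8.67) a mitochondrial protease and immt-1 (7.42) a protein that shapes the inner membrane. The summit assigned to spg-7 lay inside Y47G6A.14. These were peaks of gene ends: 12 of 13 were near an end, their median width was 1218 bp, and the nearest end was a median of 155 bp away. Of the family's 23 shared peaks, 18 were near an end too, and their median width was 1000 bp. Of the 13, 10 were in the weakest 20% of the list, where the family had 11 peaks in all. That share (90.9%, 58.7% to 99.8%) has an interval that includes the 66.2% of all peaks in the weakest 20%, so no excess over peaks of like strength was detectable. The same held for every other family with peaks there, in that no interval lay above 66.2%. The name patterns missed nduv-2 (fold 7.92), ndua-13 (6.47) and ndub-3 (6.13) of respiratory complex I and the mitochondrial elongation factor gene tufm-1 (7.80), which were picked out after their values were seen.

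In other families of basic cell machinery the total-only peaks were near gene ends too, and so were most of their shared peaks. The shared peaks near an end were 25 of 29 for the proteasome family, 14 of 18 for translation and 26 of 27 for ribosomal proteins. Their shared peaks had median widths of 1092, 871 and 1441 bp in that order, the last beside 836.5 bp for the total-only peaks. The proteasome and ubiquitin pathway, which breaks proteins down, had a total-only peak at 8 of 154 genes (5.19%, 2.27% to 9.98%). All 8 were near a gene end, with a median width of 1303 bp. Among them were rpn-5 (fold 5.00) and rpn-11 (7.88) of the proteasome lid, pbs-4 (7.17) of its core and the large ubiquitin ligase gene ubr-4 (8.40). Translation genes gave 5 of 83 (6.02%, 1.98% to 13.5%), again all near an end: eif-3.E (9.0), the cap-binding factor ife-2 (8.80), its scaffold partner ifg-1 (7.57) and the methionyl-tRNA synthetases mars-2 (7.38) and mars-1 (7.26). The ifg-1 summit lay inside dab-1. Cytosolic ribosomal protein genes gave 4 of 78 (5.13%, 1.41% to 12.6%), rpl-19 (8.75), rpl-13 (7.08), rpl-27A (6.25) and the weak rps-29 (1.35), beside 26 genes with a shared peak. The interval of each of these families includes the 2.29% of all genes. In the same order 18.2%, 21.7% and 33.3% of their genes had a shared peak, against 10.4% of all genes. The chaperone gene hsp-1, the worm's constitutive Hsp70, had a pileup of 1288 over a high background for a fold of 3.85.

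Splicing and RNA processing genes had a total-only peak at 12 of 199 genes (6.03%, 3.15% to 10.3%), and all 12 peaks were in the weakest 20% of the list, where the family had 15 peaks. That share (80.0%, 51.9% to 95.7%) has an interval that includes the 66.2% of all peaks in the weakest 20%. sftb-1 (fold 8.59) encodes a core protein of the U2 particle, mog-1 (7.61) and ddx-23 (6.91) encode helicases of the spliceosome, and cpf-1 (6.86) a factor of RNA cleavage. Of the 12 peaks, 8 were near a gene end, and these included broad ones of 1939 bp at cpf-1 and 1983 bp at rbm-7. The 4 peaks of the family outside the window around gene ends were of mixed kinds. That of unc-75, a CELF-family factor of neurons, was 373 bp wide and 1237 bp from the gene, and that of asd-2, a STAR-family factor, lay 5055 bp inside it. That of ddx-23 was 582 bp wide and 3189 bp from the gene, and that of dcap-2, an mRNA decapping enzyme gene (9.08), lay 2735 bp inside. npp-12 (9.13) encodes a protein of the nuclear pore. Outside the name patterns, syf-1 (6.06), syf-3 (8.87), smu-1 (9.62) and cacn-1 (7.73), other splicing factors, also had total-only peaks and were picked out after their values were seen.

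Genes of the transcription machinery were represented at 7 of 102 (6.86%, 2.80% to 13.6%). cdk-8 and cic-1 encode the kinase and the cyclin C of the Mediator kinase module, and both had total-only peaks, with folds of 9.35 and 10.2, at 9 and 116 bp from the gene. mdt-27 had a pair of total-only peaks 3598 bp apart, with folds of 9.22 and 8.44. The RNA polymerase subunit genes rpb-8 (6.98) and rpb-11 (6.41) followed, the latter with a peak 10845 bp from the gene, and taf-3 (8.93) of TFIID. ints-11 (6.69), with a peak of 2008 bp, belongs to the Integrator complex rather than to those named in the family.

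Chromatin genes had a total-only peak at 10 of 170 (5.88%, 2.86% to 10.6%) and a shared peak at 54 (31.8%). isw-1, the ISWI chromatin remodelling ATPase, had total-only peaks at both of its sides, 14792 bp apart. One was 40 bp from the gene with a fold of 9.69, and the other, with a fold of 11.4, lay inside the neighbouring gene rbf-1, which encodes rabphilin, a synaptic vesicle protein. ruvb-2 (10.4) encodes an ATPase of remodelling complexes, swsn-3 (9.59) a SWI/SNF subunit, and dot-1.1 (8.79) and set-25 (7.74) histone methyltransferases. jmjd-3.3 (7.22) encodes a histone demethylase-like protein, unc-85 (5.36) a histone chaperone, and egl-27 (4.97) a relative of the NuRD subunit MTA. Of the 11 peaks, 6 were near a gene end. vps-72, which the name pattern placed with membrane traffic, belongs here by function as a chromatin protein, and it had a pair of total-only peaks 2454 bp apart with folds of 6.40 and 5.89.

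Total-only peaks of bHLH, bZIP and homeobox transcription factor genes lay at a distance from gene ends. Those of nuclear hormone receptor and zinc finger genes were mostly near one. All 5 peaks of bHLH and bZIP factors were outside the window around gene ends, with a median distance of 3566 bp and a median width of 534 bp. They were at hlh-33 (fold 11.6), hlh-2 (10.3), hlh-32 (9.09), zip-7 (6.48) and crh-2 (5.55), making 5 of 67 genes (7.46%, 2.47% to 16.6%). hlh-2 encodes the shared partner of many bHLH factors in nerve and gonad development. Homeobox genes gave 2 of 107 (1.87%), the Pax-like npax-1 (9.75, 1608 bp away) and unc-39, a Six-family gene (5.56, 4614 bp away), beside 14 with a shared peak. Nuclear hormone receptor genes gave 6 of 274 (2.19%), among them nhr-56 (10.9), nhr-238 (10.7) and nhr-50 (9.06), a share close to that of all genes. The peaks of lin-14, a gene of larval timing (5.19, 1765 bp inside), and egl-44, a TEAD factor gene (7.52, 2445 bp inside), lay within their genes and were picked out after their values were seen.

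Neuronal genes were in the set, which comes from a sort that includes neuronal nuclei. Genes of synaptic vesicle release and neuronal secretion had a total-only peak at 6 of 38 (15.8%, 6.02% to 31.3%), the highest share of the 39 families, and a shared peak at 12 others (31.6%). The 6 were unc-13, which primes vesicles for fusion (fold 11.0), aex-3, an exchange factor for RAB-3 (9.91), egl-3, a neuropeptide-processing protease (8.49), maco-1, macoilin (7.89), unc-57, endophilin (6.90), and snb-1, synaptobrevin (6.55). None of the 6 genes was also nearest to a shared peak. Their summits lay outside the genes, 367 to 1264 bp from the nearest end. Of the family's 20 peaks 6 were total-only (30.0%, 11.9% to 54.3%), an interval that includes the 17.4% of the list. Genes of axonal transport and the active zone had 0 total-only peaks of 14, which allows a share of up to 21.4% and so includes the 17.4% of the list, and 12 of 25 genes with a shared peak. Neuropeptide genes had 0 total-only genes of 116, up to 2.59%, with 4 genes at shared peaks. With spans widened by 2000 bp, 1 axonal transport and 1 neuropeptide gene had a total-only peak, beside 4.24% of all genes.

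Channel and receptor genes had a total-only peak at 4 of 349 (1.15%, 0.313% to 2.91%), an interval that includes the 2.29% of all genes. The count was 10 when every gene span was widened by 2000 bp, where the family's interval included the 4.24% of all genes. It was 1 when only summits near an end were assigned, with an interval below the 1.61% of all genes there. unc-36 had the highest fold of the whole set (12.8, 604 bp from the gene). unc-79 (10.5), a subunit of the NALCN leak channel complex, had its peak 2739 bp away, and the TRP channel gene trpa-1 (8.65) had one 4464 bp inside. twk-21 (6.34), a potassium channel gene, was the one with a shared peak as well, and its total-only peak was at a tRNA gene. Among G protein genes rgs-1 (12.4) and rgs-6 (9.84) had single peaks 204 and 167 bp from the gene. kin-1, the catalytic subunit of protein kinase A, had a pair deep inside the gene, 6367 and 12188 bp from its nearest end, with folds of 7.71 and 7.29.

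Small GTPase and membrane traffic genes had a total-only peak at 14 of 245 (5.71%, 3.16% to 9.40%), vps-72 among them, and a shared peak at 55. sec-3 (8.05) and sec-8 (9.38) encode subunits of the exocyst, which tethers vesicles to the plasma membrane, and ral-1 (7.71) the GTPase that binds it. copd-1 (9.33) encodes a coatomer subunit, apm-3 (8.56) a subunit of the AP-3 adaptor, cogc-8 (8.31) one of the Golgi COG complex, vps-24 (8.92) an ESCRT protein and vha-9 (6.85) a subunit of the vacuolar proton pump. tbc-7, tbc-11 and tbc-17 encode GTPase-activating proteins for Rabs, with folds of 9.79, 9.19 and 9.25. Of the family's 15 peaks 11 were near a gene end. unc-108, the worm Rab2, had a total-only peak 39 bp from the gene (6.04) and a shared peak with a fold of 9.15, and it was picked out after its values were seen.

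Glycosyltransferase genes had a total-only peak at 8 of 143 (5.59%, 2.45% to 10.7%) and a shared peak at 14 (9.79%, 5.46% to 15.9%), and no gene had both. gly-13 (11.6) and gly-12 (11.1), both on X, encode N-acetylglucosaminyltransferases I, which start the maturation of N-linked sugar chains in the Golgi. aman-2 (8.86) encodes the mannosidase and fut-8 (9.75) the core fucosyltransferase that act on the same chains afterwards. sqv-2 (9.48) works on the linker of proteoglycans and bre-4 (10.2) on glycolipids. srf-3 (10.8), which the name pattern placed with chemoreceptors, encodes a nucleotide sugar transporter of the same pathway. Without it, chemoreceptor genes had total-only peaks at srw-60, sre-44, srd-38 and srx-125, the last with its summit inside ifbp-1. The whole chemoreceptor pattern stood at 5 of 1368 genes (0.365%, 0.119% to 0.851%), and that of C-type lectins and immune effectors at 2 of 513 (0.390%), both below all genes. Both were also low for shared peaks, at 2.12% and 3.12%.

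Muscle genes had a total-only peak at 6 of 89 (6.74%, 2.51% to 14.1%) and a shared peak at 20 (22.5%). tln-1 (9.44) was the strongest, followed by mup-2, troponin T (9.20), unc-15, paramyosin (9.10), mlc-2, a regulatory myosin light chain (7.80), act-4, actin (7.31), and sca-1, the calcium pump of the sarcoplasmic reticulum (4.79). Of the 6, 3 were near a gene end, and unc-15 had its summit 79 bp from the gene. Of the family's 28 peaks 6 were total-only (21.4%, 8.30% to 41.0%), an interval that also includes 17.4%. Cuticle and moulting genes, expressed mainly in the epidermis, gave 4 of 374 (1.07%, 0.292% to 2.72%): col-120 (7.99), ptc-3 (7.97), grd-6 (6.88) and the faint col-98 (1.37). Germline and meiosis genes gave 4 of 178 (2.25%), namely spe-40 (10.0), syp-2 of the synaptonemal complex (9.09), meg-2 of the P granules (8.43) and mog-1.

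Cell cycle and DNA repair genes gave 7 of 127 (5.51%, 2.24% to 11.0%), with orc-5 (11.0) first, then the checkpoint clamp gene hus-1 (8.54), the survivin gene bir-1 (8.03 and 6.90), polk-1 (7.95), the replication clamp gene pcn-1 (7.46), cdk-2 (7.32) and cdt-2 (6.84). Of their 8 peaks, 7 were near a gene end. Cohesin and kinetochore genes outside the name patterns, wapl-1 (5.99), eco-1 (8.40), kbp-4 (8.45) and ska-3 (7.56), had wide peaks of 1108 to 2150 bp and were picked out after their values were seen. Cytoskeleton genes gave 6 of 134 (4.48%, 1.66% to 9.49%), with gex-2 of the WAVE complex (11.2), sas-5 of the centriole (10.8), arx-3 of the Arp2/3 complex (8.76) and dnc-4 (8.01) and dnc-2 (7.55) of dynactin, the partner of dynein. Transporter genes gave 11 of 250 (4.40%, 2.22% to 7.74%), led by haf-6 (10.8), zipt-13 (9.79), zipt-2.4 (9.65) and swt-1 (9.19). Cilia genes gave 3 of 91 (3.30%, 0.685% to 9.33%), all in the weakest 20%: che-10, rootletin (10.2), and the intraflagellar transport genes dyf-3 (9.18) and ift-81 (8.65). The ift-81 summit lay inside another gene, ags-3, and assignment to the nearest gene span gave 2 cilia genes. Axon guidance and adhesion genes gave 6 of 140 (4.29%, 1.59% to 9.09%), from lron-8 (11.8) and cdh-8 (9.01) to fmil-1 (6.33). The cdh-8 peak was 7265 bp from that gene and lay inside fln-1. The intervals of the cell cycle, cytoskeleton, transporter, cilia and axon guidance shares include the 2.29% of all genes.

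In the 2 families of kinase signalling most total-only peaks lay outside the window around gene ends, and so did most of their shared peaks. Of the shared peaks, 14 of 45 in the MAP kinase group and 7 of 16 in the AMP-activated kinase group were near an end. Genes of the MAP kinase, Ras, receptor kinase and TGF-beta families gave 6 of 112 (5.36%, 1.99% to 11.3%), with 8 peaks of which 6 were outside the window around gene ends. These 8 include the kin-1 pair, which was also counted with the G protein genes. Among them lin-45, the worm Raf (8.22, 728 bp inside), abl-1 (7.80, 1019 bp inside), and unc-43, CaMKII (7.43, 6896 bp inside), had inner peaks. frl-1, a formin-like gene by name that the pattern placed here, had a pair 19438 bp apart, with folds of 10.6 and 9.04. AMP-activated kinase, TOR and insulin genes gave 4 of 78 (5.13%, 1.41% to 12.6%), and the median distance of their peaks from a gene end was 3417 bp. This interval and that of the MAP kinase group include the 2.29% of all genes. daf-2, the insulin receptor gene, had an inner total-only peak at III:3037155-3037662 (fold 7.72, pileup 878) 1214 bp from a stronger shared peak of the same gene (fold 15.4, pileup 1756).

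**Figure D5:**
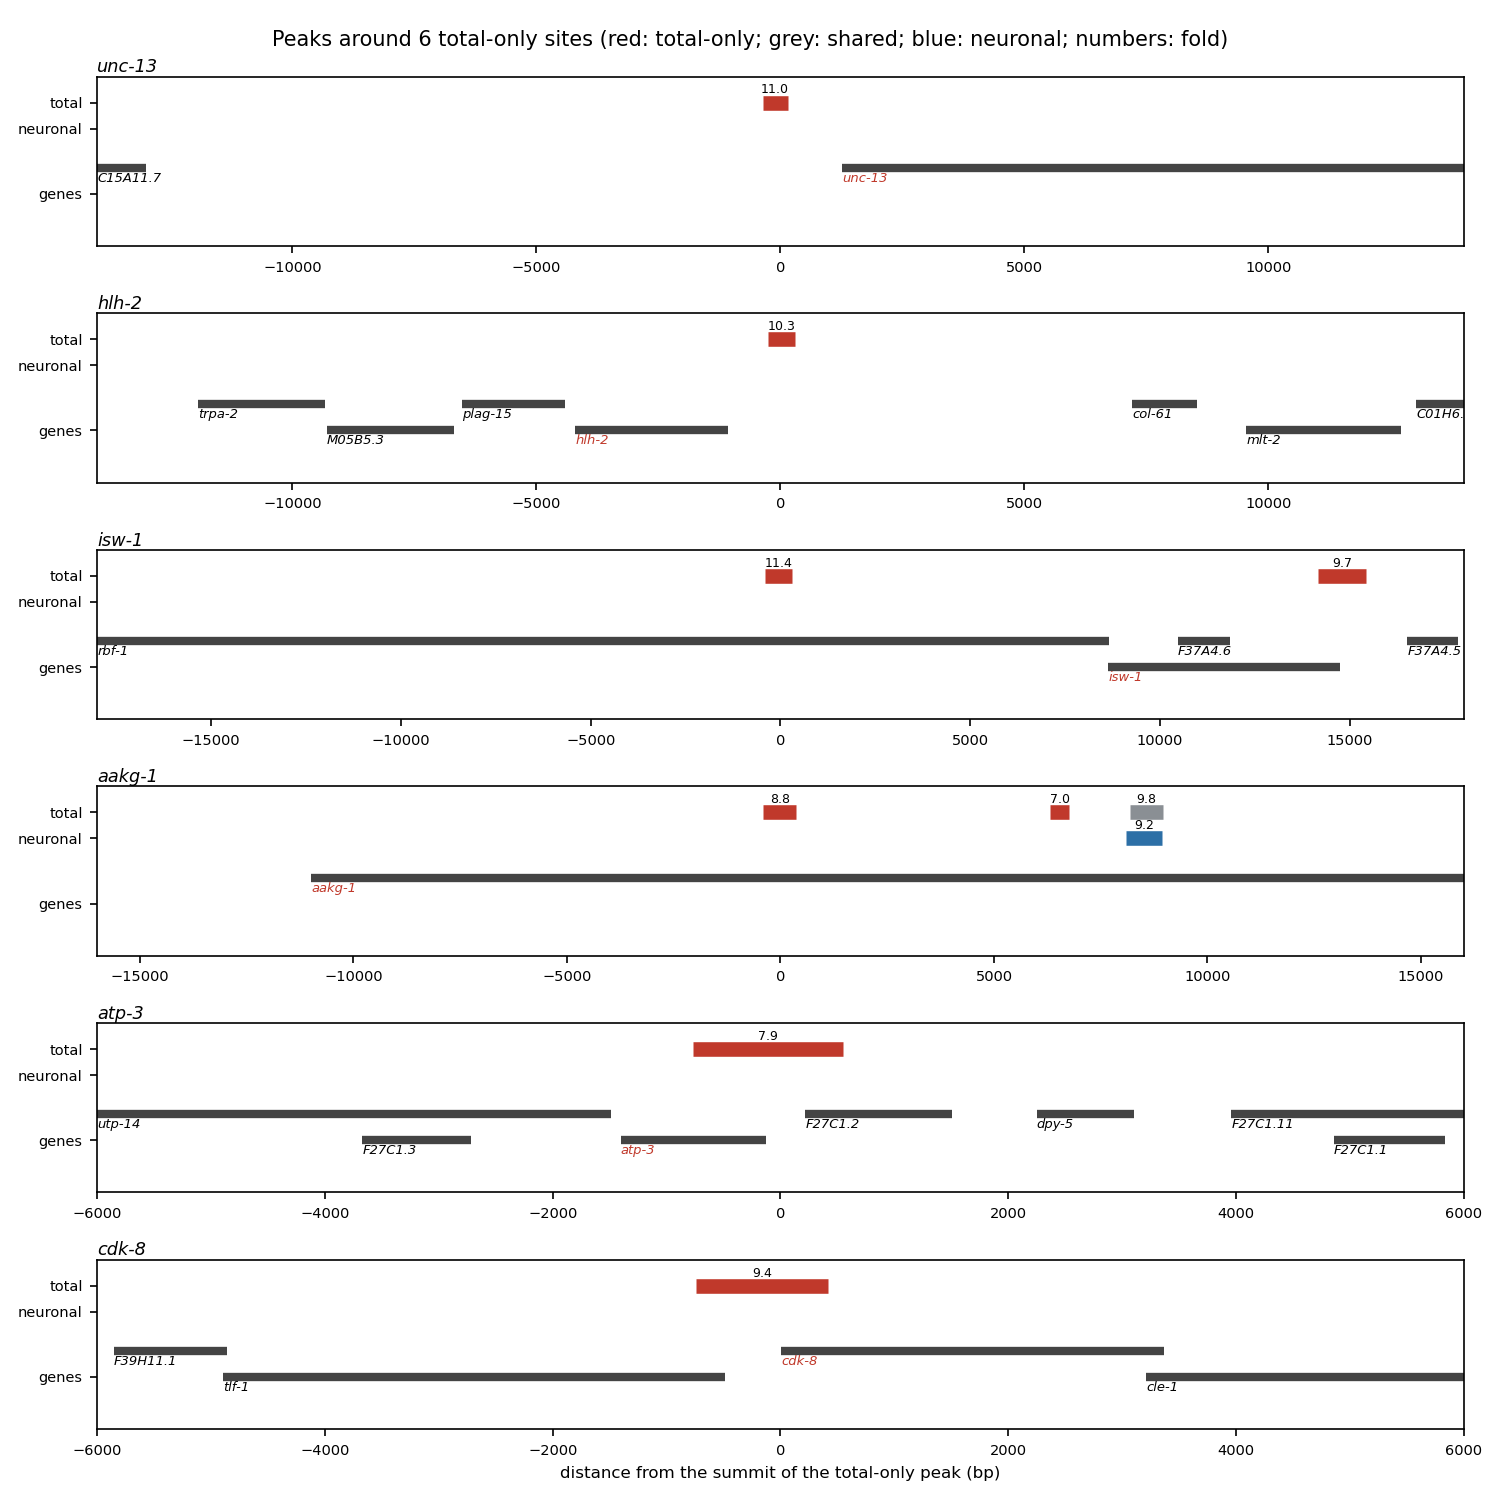
Peaks of total nuclei (red, total-only; grey, shared), neuronal peaks (blue) and protein-coding genes around total-only peaks at 6 genes, by distance from the summit (bp), with the authors' fold above each peak. The peaks of unc-13 and hlh-2 stand in wide spaces between genes, those of isw-1 and aakg-1 are in pairs, and those of atp-3 and cdk-8 cover the narrow space between neighbouring genes.

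Most total-only peaks were the only peak of their gene. Of the 467, 395 had no other peak at the same gene (84.6%, 81.0% to 87.7%). The same share was not counted for shared peaks, so it does not mark the set off from them. Of the 457 genes, 54 were also nearest to a shared peak (11.8%, 9.0% to 15.1%), close to the 10.4% of all genes with a shared peak. Among the 2079 genes with a shared peak the share with another shared peak was lower, at 120 genes (5.77%, 4.81% to 6.86%). Counted by distance, 17.8% of total-only peaks (14.4% to 21.5%) had another shared summit within 5000 bp. For shared peaks it was 16.1% (14.6% to 17.7%), so the difference by gene was not seen by distance. Of the 54 genes with peaks of both kinds, 48 had 1 shared peak, 5 had 2 and aakg-1 had 3. The 54 genes were long, with a median of 4346 bp against 2731 bp for the 403 genes with total-only peaks alone. The 56 total-only peaks at these genes lay a median of 2009 bp from the nearest shared summit of the gene (range 379 to 25506 bp).

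In 51 of these 56 pairs the total-only peak was the weaker by fold. All 467 total-only peaks were in the weaker part of the list by p. Their median fold was 8.16 beside 11.3 for shared peaks, so a weaker total-only peak was likely in any such pairing. No expected count was computed, so the 51 pairs are a description and do not mark peaks at the same gene off from others. The faint peaks of col-98 and hgap-1 stood beside shared peaks with folds of 13.1 and 10.1. Among the other wide differences, at dot-1.1 the total-only peak had a fold of 8.79 and the shared one 24.5, and at Y55F3BR.2 the folds were 8.38 and 24.0. crh-2 had 5.55 beside 13.4, and unc-115, a gene of the actin cytoskeleton in axons, 5.54 beside 13.3. The 5 total-only peaks with the higher fold were at M01F1.4 (6.94 and 6.84), mstr-1 (5.19 and 5.01), pix-1 (10.1 and 9.99), tres-1 (7.69 and 6.17) and unc-43 (7.43 and 6.74). Only at M01F1.4 and mstr-1 was the −log10 p higher too, at 473.1 against 384.7 and 637.6 against 630.6. At act-4, egl-27 and T20D4.15 the peaks were near in strength, with pileups of 1144 and 1226, 1259 and 1204, and 723 and 720.

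Pairs of total-only peaks at the same gene occurred at 10 genes, and no gene had 3 or more. They were W02B3.3, aakg-1, bir-1, cacn-1, frl-1, isw-1, kin-1, mdt-27, tent-5 and vps-72, with 809 to 19438 bp between the summits. In aakg-1, which encodes a gamma subunit of AMP-activated protein kinase, both total-only peaks (folds 8.82 and 7.01, 6608 bp apart) and 3 shared peaks were assigned to the same long gene. tent-5 had its pair 4594 and 4808 bp from the ends (6.50 and 6.92), and neither tent-5 nor kin-1 had a shared peak. At cacn-1 the second peak was faint, with a fold of 1.38 beside 7.73 and 809 bp away. In all, 13 pairs of neighbouring total-only summits lay within 5000 bp of each other, with no shared peak between them, among them rpn-11 with the faint pqn-48 peak, idhg-1 with the faint mlcd-1 peak, and rpn-5 with unc-85.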

How the data were processed

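Peak lists of ATAC-seq from 3 samples of total and 3 of neuronal nuclei were used. The labels assign each sample to its group and leave unsaid whether samples came from separate cultures. The submitters' processing notes name build ce11 and the tools MACS2, bedtools 2.26, Picard, SAMtools 1.7, Bowtie2 2.2.6 and cutadapt 1.9.1. The Tn5 shift, the treatment of duplicates and the way samples were combined are each not given in those sources or the labels. A single narrowPeak list per group was deposited by the authors, with an irreproducible discovery rate of 0.1 in its name. Each deposited peak has a score, a fold enrichment (a ratio to local background), a −log10 p-value from the authors' peak caller and a summit offset. A list holds only reproducible peaks, so absence from it does not show that a site is closed, and a deeper list can hold weaker sites. By local background the neuronal list was the deeper one here.

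Overlaps, gene assignments and exact binomial intervals came from Python 3.11.15 with pandas 2.3.3, scipy 1.17.1 and numpy 2.4.6, and figures from matplotlib 3.10.9. A peak was shared at an overlap of 1 bp or more. Pileup and local background were solved from the deposited fold and p with the default formulas of MACS2. The pileup came out whole, within 0.02, for 99.9% of total and 99.8% of neuronal peaks, and the step was tested on simulated data. The depth of the libraries is otherwise unknown. Genes and RNA genes came from a table of the assembly WBcel235, whose sequence is that of ce11, with 19971 protein-coding genes and no strand or exons. Peaks and genes are not replicates, and no test was run.

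The set, the 39 gene families (by symbol pattern) and the comparisons were chosen with earlier results of these data known. Genes were named by rule: the 10 highest in −log10 p and in fold, genes with 2 total-only peaks, up to 4 per family by fold, the 5 nearest to and farthest from a neuronal peak and the 3 widest. Genes beyond that rule were named after their values were seen, and these include the further members listed within families and the genes with peaks of both kinds. Alternatives changed the overlap rule, the strength of peaks entered, the windows and the assignment. Sequence and motif comparisons were not run, as no genome sequence was used here.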

Additional observations from a re-analysis of the deposited data

How the results depend on the processing

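Of 69 recomputed values of the main measures 54 stayed close to the reported ones and 15 moved. Entering only the stronger 50% of each list by −log10 p dropped all 467 members and gave another set, of 210 peaks whose neuronal partner was in the weaker 50%: median fold 11.2, 21.4% inside a gene, 20.5% on X, 9.05% at a tRNA gene and 4.33% of genes with another shared peak. The lower share on X than among shared peaks was lost there (22.2% of those), and it also lay within the interval of weak shared peaks in the lists as deposited. The share at tRNA genes stayed below that of shared peaks (19.1%). With equal numbers of peaks per list the set had 191 peaks, a median fold of 9.12 and 73.8% near a gene end. With only peaks of score 1000, 263 members stayed among 376 peaks, the median fold was 8.80 and 5.05% were at a tRNA gene. Windows of 500 bp outside to 100 bp inside, and of 2000 bp to 500 bp, put 61.5% and 81.2% near a gene end. When only summits near an end were assigned, 4.35% of genes had another shared peak. At 0 bp from the tRNA gene the share was 0.857%. The tRNA windows and the repeats without tRNA peaks were chosen after seeing the data. Of 117 family counts under other assignments 80 stayed within 1.5 times and 37 moved. No paired analysis was possible because the lists hold no value per sample, and no sample could be left out. The neuronal list says nothing of sites below its own threshold, although its lowest local background was the higher one (110.3 against 69.1 fragments).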
